A study of Mus musculus with 15 samples.

Results

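The genes described here are 47 mouse genes of mitosis, the spindle and the kinetochore. They were taken by name as a fixed list, chosen with earlier results of these data known. Of these, 46 had a probe set assigned to a single gene symbol, among 18193 such genes on the array, and Ccnb1 was not analysed here. Expression was measured on 15 Affymetrix arrays. The first group held 9 mouse peripheral T cell lymphomas, mPTCL 1 to mPTCL 9, which arose in C57BL/6 CD3KO mice given p53KO T cells and were sorted from liver. The second group held 3 preparations of p53 KO T cells activated in vitro, and the third 3 preparations of resting p53 KO T cells, both from 5-week-old C57Bl/6 mice and sorted from liver or spleen. The T cells of all 3 groups lack p53, so no comparison bears on its loss, and the p53 gene itself is not analysed here. The labels also mention injections of p53-deficient mice with PBS or killed Streptococcus pneumoniae, without saying which mice were given which. The activating agent and the length of the culture are not given in the sources used here. CD3KO hosts lack mature T cells of their own but keep their other blood cells.

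A dividing cell enters mitosis when Cdk1, bound to A- and B-type cyclins, is freed of its inhibitory phosphates by the Cdc25 phosphatases. Aurora and Polo kinases then build the spindle, kinetochores tie chromosomes to microtubules, and the spindle checkpoint holds back the anaphase-promoting complex until every chromosome is attached. That complex, with its activator Cdc20 and the ubiquitin-conjugating enzyme Ube2c, destroys securin and cyclin B, which frees separase to part the sister chromatids, and the central spindle then guides cytokinesis. Transcripts of many such genes, though not of all, peak in G2 and M phase and are scarce in resting T cells, which have left the cell cycle. In bulk RNA, a larger share of dividing cells and more RNA per dividing cell cannot be told apart.

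The deposited values were intensities on a linear scale, called signals below, with the same trimmed mean of 500 in every array. Signals under 32 were set to 32 before log2 was taken. Each gene was read from whichever of its probe sets had the highest mean, and the 11902 genes whose signal reached 100 in 3 or more arrays entered the tests. Of the 46 genes on the array, 45 passed that filter. Kif15, a spindle motor, did not: its signal ranged between 56.2 and 113 in lymphomas, was 98.3, 93.4 and 118 in activated cells, and was 54.9, 94.5 and 46.2 in resting cells. Changes are differences of mean log2 signal ± standard error from limma, over 9 lymphomas, 3 activated and 3 resting preparations. Calls required an adjusted p under 0.05 (Benjamini-Hochberg, over all genes tested) together with a 2-fold or larger change. Nothing in the labels says that preparations of 1 group came from separate mice, so the p-values measure the spread between these arrays. Amplification with the 3' IVT Express kit is stated for normal cells only, so kit and group cannot be told apart wherever lymphomas are compared with normal cells.

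Markers of other cells differed among the lymphomas and between groups. The mean log2 signal of 10 neutrophil genes ranged between 5.50 and 12.11 in lymphomas, between 5.64 and 5.94 in activated cells, and between 5.63 and 5.86 in resting cells. It was above 8 in mPTCL 1, 2, 4, 5, 8 and 9. S100a9, Cxcr2 and Lcn2 lay below the floor in all activated arrays, Cxcr2 and Lcn2 in all resting arrays, and no neutrophil marker did so in all lymphomas. The mean of 9 B cell genes was 10.46, 8.84 and 11.95 in mPTCL 1, 4 and 5 and 5.79 to 7.39 in the other lymphomas, against 6.64 to 8.50 in activated and 7.79 to 8.51 in resting cells. The 12 macrophage genes averaged 10.21 in mPTCL 4, the highest of all arrays. The mean of 7 T cell genes ranged between 9.10 and 12.47 in lymphomas, below the 12.74 to 12.83 of activated cells and the 13.01 to 13.28 of resting cells. Cd3e, a chain of the T cell receptor complex, lay at the floor in mPTCL 4 and at 5.68 in mPTCL 3, while Cd3g stood between 10.14 and 13.98 in all 9 lymphomas. Activated cells also had higher signal for 5 of 7 stromal genes tested, Dcn among them (at least 3.42 against resting cells, adjusted p = 0.000294).

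Activated T cells had higher signal than resting T cells for 44 of the 45 genes tested and lower signal for 0 (limma), where 8.45% of all genes tested were called higher and 4.23% lower. The median change of the 45 genes was 3.58 on the log2 scale, against 0.02 over all genes tested. All 45 had an unadjusted p under 0.05, a limit for which the share of all genes tested was not computed. In all 45 the groups did not overlap, as in 46.6% of all genes tested. The one gene not called, Pttg1, was the only one with a change below 0. Where a gene's resting values reached below the floor its change is a lower bound, written as at least that value. The changes of Cenpf (4.78), Bub1b (at least 4.72), Espl1 (4.64) and Kif4 (at least 4.53) were among the large ones, and the smallest called ones those of Kif23 (1.08), Foxm1 (1.34) and Racgap1 (1.48). Kif23 fell under the 2-fold limit without resting preparation 1 (0.93) or activated preparation 3 (0.97).

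Lymphomas had higher signal than resting T cells for 40 of the 45 genes and lower signal for 0 (limma), where 7.03% of all genes tested were called higher and 6.84% lower. Their median change was 3.40, against -0.02 over all genes tested. At an unadjusted p under 0.05 the number was 41, none of them below 0 in change, and the share of all genes at that limit was again not computed. In the 40 called genes every lymphoma lay above every resting preparation, as in 8.36% of all genes tested. The changes of Espl1 (4.61), Aurkb (at least 4.12) and Bub1 (3.96) were among the large ones, and Cdc25b, Kif23, Racgap1, Foxm1 and Pttg1 were not called. Spc25 was lost when any 1 resting preparation was left out (adjusted p of 0.0571 to 0.0753), and Mybl2 without resting preparation 2 (0.0527) or 3 (0.0529). The same resting preparations serve both comparisons, so the changes of lymphomas and of activated cells against them are not independent.

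**Figure D1:**
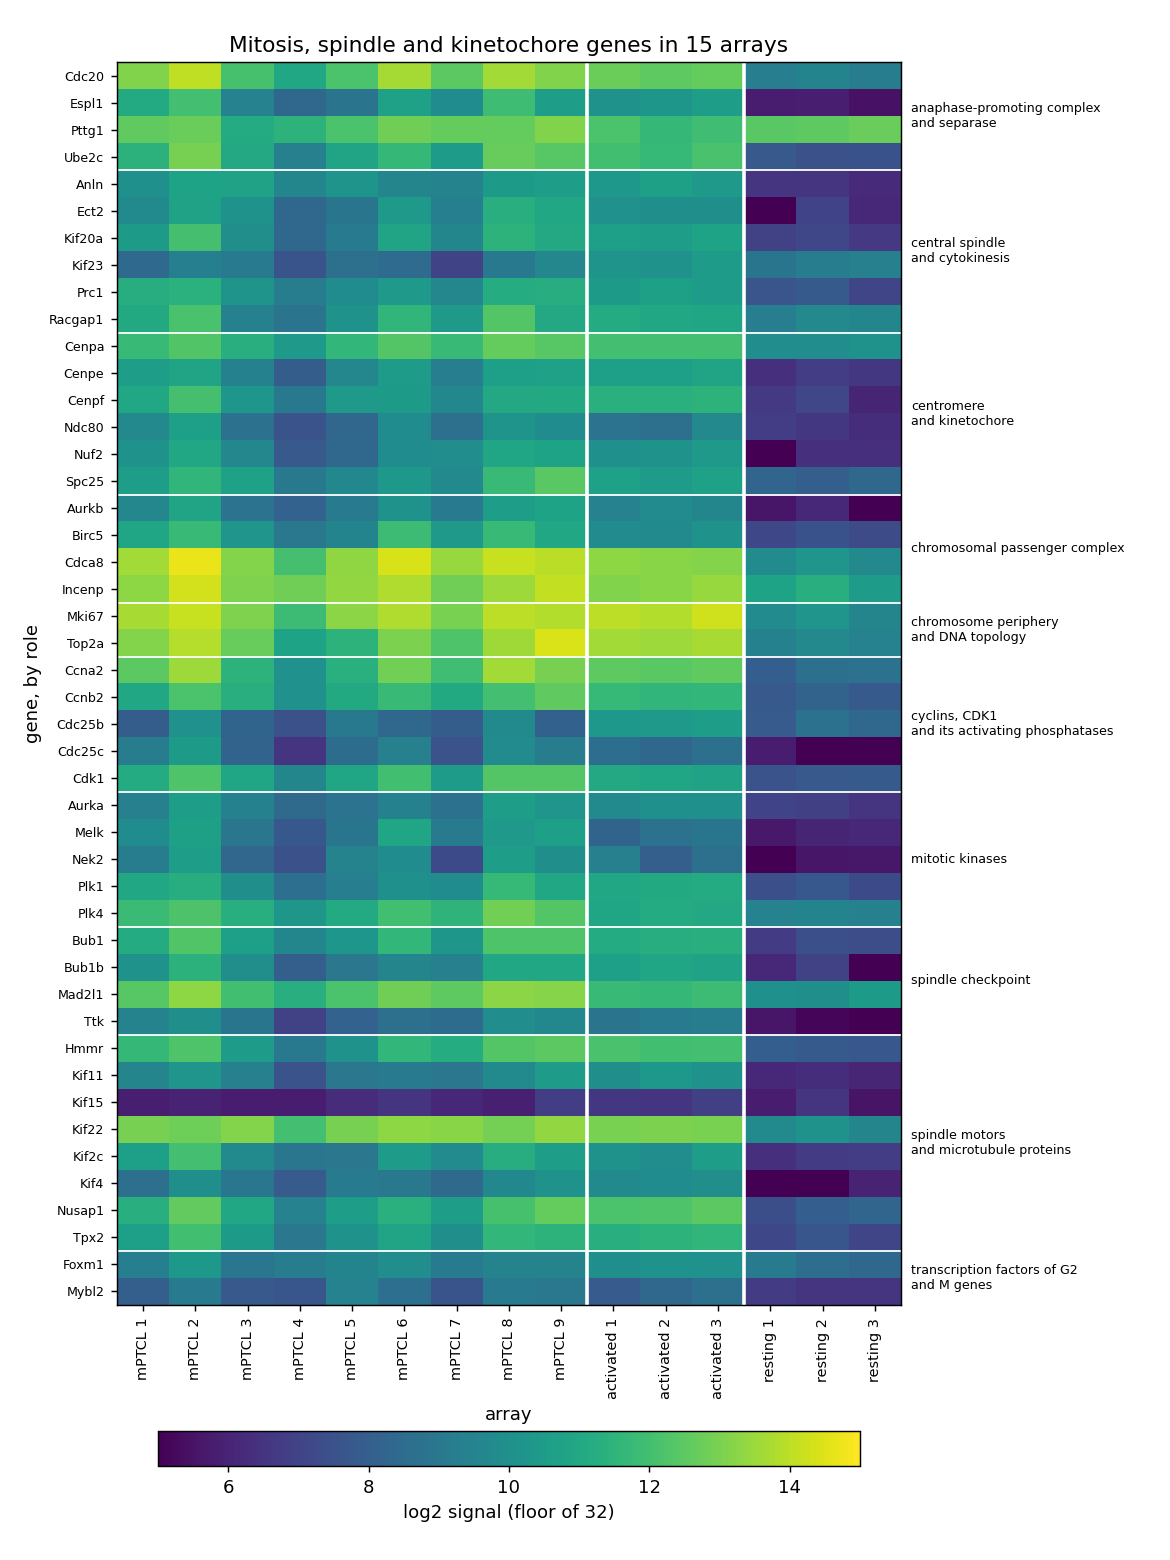
Heat map of log2 signal (floor of 32) for the 46 genes on the array, grouped by role down the page, in 9 lymphomas, 3 activated and 3 resting T cell preparations from left to right. Resting preparations are darker than the others in nearly every row, the Pttg1 row has no dark resting columns, and mPTCL 4 is the darkest lymphoma column, with the lowest signal of the 9 in 39 of the 45 genes tested.

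Mki67 and Top2a, of the chromosome periphery and of DNA decatenation, both rose in activated cells and in lymphomas. Mki67, the Ki-67 proliferation marker, had a lowest, median and highest signal of 3665, 13328 and 18298 in lymphomas, 16380, 14578 and 19837 in activated cells, and 910, 1202 and 744 in resting cells. Its change was 4.17 ± 0.20 in activated cells (adjusted p = 9.64e-05) and 3.54 ± 0.40 in lymphomas (adjusted p = 0.000188), each against resting cells. Top2a, the topoisomerase that untangles sister chromatids, had 1768, 8360 and 22318 in lymphomas as lowest, median and highest, 12499, 12011 and 13118 in activated cells, and 664, 843 and 688 in resting cells. The lymphoma values of Top2a thus spanned a range that reached both below and above the 3 activated preparations, without touching the resting ones.

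Of the cyclins, Cdk1 and its phosphatases, 5 genes were tested. All 5 rose in activated cells and 4 rose in lymphomas against resting cells. Ccna2, the A-type cyclin of S phase and mitotic entry, changed by 4.03 ± 0.20 in activated cells and by 3.77 ± 0.62 in lymphomas. Its signal was 1070, 5732 and 12464 in lymphomas as lowest, median and highest, 5918, 5622 and 6022 in activated cells, and 257, 418 and 426 in resting cells. Cdk1 itself reached 778, 2291 and 5170 in lymphomas, 2102, 1901 and 1714 in activated cells, and 190, 219 and 225 in resting cells. Ccnb2, a B-type cyclin, rose by 3.70 in activated cells and by 3.52 in lymphomas. Cdc25c, another of the phosphatases, rose at least 9.94-fold in activated cells and at least 11.4-fold in lymphomas, lower bounds since 2 of its 3 resting values lay below the floor. Cdc25b, which acts on Cdk1 at the onset of mitosis, was the exception. It had 179, 296 and 1060 in lymphomas, 1300, 1366 and 1567 in activated cells, and 237, 431 and 334 in resting cells. Cdc25b rose in activated cells (2.12 ± 0.23, adjusted p = 0.00137), while lymphomas overlapped resting cells (0.20 ± 0.51, adjusted p = 0.819).

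All 5 mitotic kinases rose in both comparisons with resting cells. Plk1, the Polo-like kinase of spindle assembly and cytokinesis, changed by 3.59 ± 0.16 in activated cells, with 406, 1049 and 3350 in lymphomas, 2058, 2146 and 2258 in activated cells, and 176, 215 and 152 in resting cells. Plk4, which starts centriole duplication, had the smallest change in both (1.59 ± 0.10 in activated cells and 2.27 ± 0.42 in lymphomas). It had 1268, 3588 and 7440 in lymphomas as lowest, median and highest, 1935, 2280 and 2082 in activated cells, and 695, 727 and 662 in resting cells. Nek2, a kinase that parts the centrosomes, had 152, 709 and 1558 in lymphomas as lowest, median and highest, 662, 258 and 418 in activated cells, and 7.25, 49.2 and 50.3 in resting cells. It had the widest spread of the 45 genes among activated preparations, with a standard deviation of 0.68 on the log2 scale. Aurka, the Aurora kinase of spindle poles, rose by 3.12 in activated cells and by 2.69 in lymphomas.

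The spindle checkpoint genes Bub1, Bub1b, Mad2l1 and Ttk rose in both comparisons. Bub1b, the BubR1 pseudokinase of the checkpoint complex, had 258, 974 and 2715 in lymphomas, 1596, 1860 and 1754 in activated cells, and 70.6, 125 and 4.39 in resting cells, a change of at least 26.4-fold in activated cells and at least 14.7-fold in lymphomas. Bub1, which marks kinetochores for the other checkpoint proteins, changed by 3.96 ± 0.56 in lymphomas (adjusted p = 0.000565), with 761, 2307 and 5041 there against 109, 173 and 164 in resting cells. Mad2l1, the Mad2 protein that binds Cdc20, differed least from resting cells. Its signal was 2561, 5838 and 10130 in lymphomas, 3513, 3261 and 3664 in activated cells, and 1051, 1007 and 1382 in resting cells, giving changes of 1.61 ± 0.14 in activated cells and 2.41 ± 0.37 in lymphomas.

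The chromosomal passenger complex, which corrects faulty attachments and steers cytokinesis, comprises Aurkb, Birc5, Incenp and Cdca8, and all 4 rose in both comparisons. Aurkb, its kinase, had 286, 793 and 1836 in lymphomas, 686, 898 and 777 in activated cells, and 48.3, 70.5 and 22.0 in resting cells. It rose at least 16.4-fold in activated cells and at least 17.3-fold in lymphomas. Incenp, the scaffold, had the smallest change of the complex in both (2.40 ± 0.20 in activated cells and 2.59 ± 0.31 in lymphomas), with 7208, 10513 and 20418 in lymphomas, 8926, 9433 and 11389 in activated cells, and 1778, 2488 and 1465 in resting cells. Birc5, the survivin subunit, had 507, 1956 and 3668 in lymphomas, 898, 876 and 1091 in activated cells, and 144, 185 and 156 in resting cells.

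All 6 centromere and kinetochore genes rose in both comparisons. Cenpf, a protein of the outer kinetochore that accumulates in G2, changed by 4.78 ± 0.28 in activated cells and by 3.94 ± 0.50 in lymphomas. Its signal was 528, 1396 and 4266 in lymphomas, 2637, 2591 and 2861 in activated cells, and 103, 140 and 65.2 in resting cells. Cenpa, the histone H3 variant of centromeres, had the smallest change of the 6, 2.03 ± 0.09 in activated cells and 1.86 ± 0.38 in lymphomas. It had 1328, 3549 and 6354 in lymphomas, 4142, 4087 and 4107 in activated cells, and 957, 967 and 1100 in resting cells. The Ndc80 complex, which grips microtubules, was represented by Ndc80, Nuf2 and Spc25, whose changes were 2.49, at least 4.27 and 2.40 in activated cells and 2.70, at least 3.90 and 2.43 in lymphomas.

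The 7 spindle motors and microtubule proteins tested rose in both comparisons. Kif4, a chromosome-arm kinesin, had the largest change of the group, with 237, 511 and 1141 in lymphomas, 871, 921 and 986 in activated cells, and 26.6, 21.3 and 62.6 in resting cells, at least 23.1-fold in activated cells and at least 13.7-fold in lymphomas. Kif22, another chromokinesin, had by the probe set used the smallest change in both comparisons. By that probe set it also had the narrowest spread of all 45 genes among the lymphomas, with a standard deviation of 0.40 on the log2 scale. Its other probe sets varied more: the standard error of the change in lymphomas against resting cells was 0.49 and 0.64, beside 0.25 for the probe set used. By the probe set used, Kif22 had 4168, 7874 and 10590 in lymphomas, 8170, 8292 and 8148 in activated cells, and 864, 1096 and 758 in resting cells. Kif11, the motor that pushes spindle poles apart, and Tpx2, which activates Aurora A on the spindle, rose by 3.98 and 4.15 in activated cells and by 3.17 and 3.35 in lymphomas.

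Central spindle and cytokinesis genes were divided. All 6 rose in activated cells and 4 of them, Kif20a, Prc1, Anln and Ect2, rose in lymphomas. Ect2, the exchange factor that activates RhoA at the division plane, had 321, 1120 and 2497 in lymphomas, 1078, 998 and 1002 in activated cells, and 20.3, 130 and 70.3 in resting cells. Anln, the anillin scaffold of the contractile ring, changed by 4.06 ± 0.19 in activated cells and by 3.73 ± 0.33 in lymphomas. Kif23 and Racgap1 encode the 2 subunits of centralspindlin, the complex that recruits Ect2 to the midzone. Racgap1 had 461, 2072 and 5095 in lymphomas, 2266, 1985 and 1913 in activated cells, and 623, 839 and 761 in resting cells. It rose in activated cells (1.48 ± 0.14), and in lymphomas 461 in mPTCL 4 and 673 in mPTCL 3 reached into or below the resting range (1.24 ± 0.64, adjusted p = 0.195). Kif23 had 131, 410 and 801 in lymphomas, 1153, 1093 and 1420 in activated cells, and 470, 610 and 663 in resting cells, so its lymphoma values spread around the resting level (-0.58 ± 0.47, adjusted p = 0.418).

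Of the 4 anaphase genes, Cdc20, Ube2c and Espl1 rose in both comparisons and Pttg1 was called in neither. Espl1, the separase that cuts cohesin, had 329, 1562 and 4152 in lymphomas, 1133, 1247 and 1541 in activated cells, and 55.0, 57.3 and 44.8 in resting cells, a 24.5-fold rise in lymphomas and a 24.9-fold rise in activated cells. Ube2c had 652, 2781 and 7806 in lymphomas, 4073, 3309 and 4471 in activated cells, and 224, 180 and 184 in resting cells. Pttg1, the securin that holds separase inactive, did not follow. It had 2294, 6287 and 8882 in lymphomas, 4632, 3218 and 3928 in activated cells, and 5590, 5870 and 6650 in resting cells, so that all 3 activated values lay below all 3 resting ones. The change was -0.63 ± 0.15 in activated cells (adjusted p = 0.0196, under the 2-fold limit) and -0.19 ± 0.35 in lymphomas (adjusted p = 0.739). Securin and separase, which bind each other as proteins, thus had transcripts with changes of opposite sign in activated cells.

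Foxm1 and Mybl2 encode transcription factors that act on G2 and M phase genes. Both rose in activated cells, by 1.34 ± 0.21 and 1.70 ± 0.27, less than the median of the list. In lymphomas Mybl2 rose (1.88 ± 0.42, adjusted p = 0.00963) and Foxm1 did not pass the test (0.75 ± 0.30, adjusted p = 0.0967). Foxm1 had 480, 718 and 1274 in lymphomas, 1023, 1098 and 1074 in activated cells, and 577, 391 and 332 in resting cells. Mybl2 had 196, 401 and 686 in lymphomas, 232, 329 and 416 in activated cells, and 108, 92.8 and 91.1 in resting cells. Without mPTCL 1, 2, 4, 5, 8 and 9, the lymphomas with neutrophil marker RNA, 39 of the 40 genes higher in lymphomas stayed called, where 6.40% of all genes tested were called higher, and Mybl2 was the one that did not (1.42, adjusted p = 0.054). Without mPTCL 1, 4 and 5, those with B cell marker RNA, all 40 were called, where 9.14% of all genes were.

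**Figure D2:**
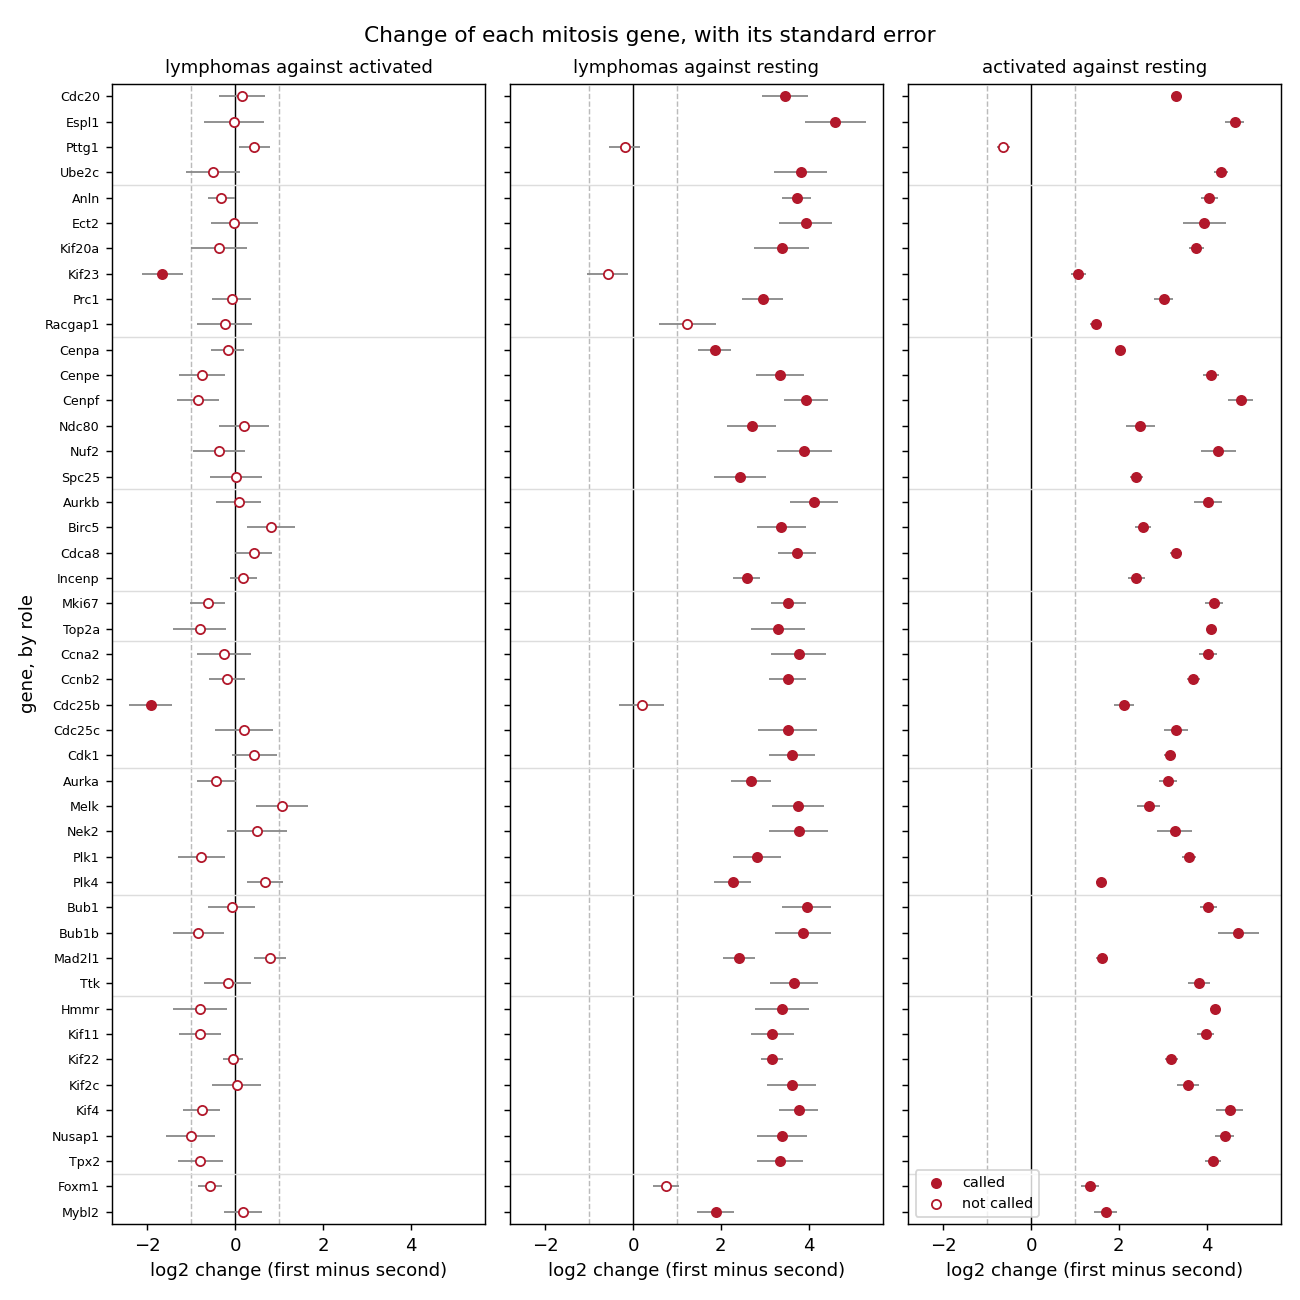
Log2 change ± standard error of each of the 45 genes tested, in lymphomas against activated cells, lymphomas against resting cells and activated against resting cells, with filled points for called genes, lower bounds where resting values lay below the floor, and dashed lines at 2-fold. Changes against resting cells cluster above 2 with Pttg1 below 0 in both panels, and the changes of lymphomas against activated cells spread around 0, with Cdc25b and Kif23 called lower.

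Lymphomas and activated cells were then compared directly. By the probe set with the highest mean, lymphomas had lower signal for 2 of the 45 genes, Cdc25b and Kif23, and higher signal for 0 (limma), where 8.28% of all genes tested were called lower and 7.04% higher. The same 2 genes were the only ones with an unadjusted p under 0.05 and the only ones whose groups did not overlap, as in 12.4% of all genes tested, which were lower in every lymphoma. The median change was -0.17, against -0.08 over all genes tested, and 16 genes had a change above 0 and 29 below. That median was 0.01 without mPTCL 4, 0.16 without the 3 lymphomas with B cell marker RNA and -0.38 without the 6 with neutrophil marker RNA. Over all genes tested it was then -0.10, -0.13 and -0.15. Of the 45 changes, 41 were smaller than 2-fold in either direction. This does not show that the groups were alike: the 95% intervals extended by a median of 1.13 to either side on the log2 scale. By the probe set used, 2 genes, Kif22 and Incenp, had an interval wholly within 2-fold. Their other probe sets gave changes of -0.54 ± 0.49 and -0.23 ± 0.64 for Kif22, and between -0.45 and -0.86 for Incenp. Intervals were not computed for those, so likeness of these 2 genes rests on 1 probe set each.

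Cdc25b was lower in lymphomas by 3.77-fold (-1.92 ± 0.49, adjusted p = 0.0163). Its highest lymphoma value, 1060 in mPTCL 2, lay below the lowest activated value of 1300. Kif23 was lower by 3.15-fold (-1.66 ± 0.47, adjusted p = 0.0252), with a highest lymphoma value of 801 in mPTCL 9 against a lowest activated value of 1093. Neither call was kept when any 1 of the 3 activated preparations was left out (adjusted p of 0.063 to 0.0787 for Cdc25b and 0.0838 to 0.113 for Kif23), or when each array was centred on its median (adjusted p = 0.0704 and 0.103).

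The largest increase was that of Melk, a kinase of proliferating cells. Melk had 215, 931 and 1875 in lymphomas as lowest, median and highest, against 298, 422 and 478 in activated cells, and its change did not pass the test (1.07 ± 0.59, adjusted p = 0.209). Birc5 (0.81 ± 0.55) and Mad2l1 (0.79 ± 0.37) came next, with adjusted p of 0.310 and 0.141. Among genes not called, the largest decreases were those of Nusap1, a microtubule-bundling protein (-1.01 ± 0.56), Cenpf (-0.85 ± 0.48) and Bub1b (-0.84 ± 0.58), with adjusted p of 0.213, 0.222 and 0.321. Nusap1 had 686, 2547 and 6354 in lymphomas, against 4584, 4896 and 5690 in activated cells, so 2 lymphomas lay above the highest activated preparation and 7 below the lowest. By role, the spindle motors and microtubule proteins had a median change of -0.79 with 6 of 7 below 0, and the 4 passenger complex genes one of 0.31 with all 4 above 0. Both medians kept their sign under quantile normalisation and with each array centred on its median, while that of the 6 central spindle and cytokinesis genes, -0.28 with all 6 below 0, turned to 0.10 with centring. None of the 11 motor and passenger complex genes was called. Incenp counted as above 0 by the probe set used (0.19 ± 0.31), while its other probe sets gave changes between -0.45 and -0.86, none of them called.

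These counts depended on which lymphomas entered. Without the 6 lymphomas with neutrophil marker RNA, 8 genes were lower and 0 higher, the 6 added ones being Bub1b, Cenpf, Kif4, Nusap1, Plk1 and Tpx2, with changes between -1.04 and -1.33. In that fit 7.93% of all genes tested were called lower and 7.92% higher. The 3 lymphomas then left, mPTCL 3, 6 and 7, had neutrophil means of 5.50, 7.19 and 6.03. Without the 3 lymphomas with B cell marker RNA, 3 genes were higher, Melk (1.49), Birc5 (1.26) and Mad2l1 (1.09), and 2 were lower, where 9.91% of all genes tested were called higher and 11.8% lower. The higher count is thus no larger than the share of all genes. The part of these marker signals in the result was not tested.

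The lymphomas differed from each other far more than the normal preparations did. The standard deviation of log2 signal over the 45 genes had a median of 0.97 in lymphomas, 0.14 in activated cells and 0.26 in resting cells, against medians over all genes tested of 0.60, 0.19 and 0.23. Espl1 had the widest spread among lymphomas (1.28). The same lymphomas ranked low or high in many genes. mPTCL 4 was the lowest of the 9 in 39 of the 45 genes and lay below the lowest activated preparation in all 45, yet it lay above the highest resting preparation in 41. mPTCL 2 was the highest in 24 genes, mPTCL 9 in 11 and mPTCL 8 in 7, and these 3 lay above the highest activated preparation in 40, 34 and 33 genes.

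The mean log2 signal of the 45 genes, from mPTCL 1 to mPTCL 9, was 10.80, 11.74, 10.30, 9.14, 10.15, 10.97, 10.14, 11.55 and 11.43. It was 10.87, 10.86 and 11.01 in activated preparations and 7.58, 7.85 and 7.60 in resting ones. Thus mPTCL 3, 4, 5 and 7 lay at 10.30 or below, and mPTCL 2, 8 and 9 at 11.43 or above, on either side of the activated cells. The lowest lymphoma, mPTCL 4, had a neutrophil mean of 11.37, a macrophage mean of 10.21, a B cell mean of 8.84 and the lowest T cell mean, 9.10. In mPTCL 7, with a mitosis mean of 10.14, the neutrophil, macrophage and B cell means were 6.03, 5.46 and 5.79. In mPTCL 8, with a mitosis mean of 11.55, the neutrophil mean was 10.74. The 10 erythroid genes averaged 9.53 in mPTCL 8 and 10.26 in mPTCL 9, both high in mitosis genes, but 6.11 in mPTCL 2, the highest in mitosis genes. They averaged 5.56 to 8.34 in the lymphomas other than mPTCL 8 and 9, 6.38 to 6.57 in activated and 5.57 to 6.29 in resting cells. The ratio of 3' to 5' actin probe sets, a gauge of RNA integrity, was 2.23, 2.41 and 2.65 in mPTCL 3, 4 and 5, and between 1.47 and 1.91 in the other lymphomas, 1.49 and 1.54 in activated cells and 1.26 and 1.50 in resting cells. The same ratio for Gapdh did not set these 3 lymphomas apart. It was 2.02, 2.05 and 2.1 in mPTCL 3, 4 and 5, and between 1.26 and 2.09 in the other lymphomas. In activated cells it was 1.26 to 1.36, and in resting cells 1.86 to 2.21. The part of other cells and of RNA quality in the spread was not tested.

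**Figure D3:**
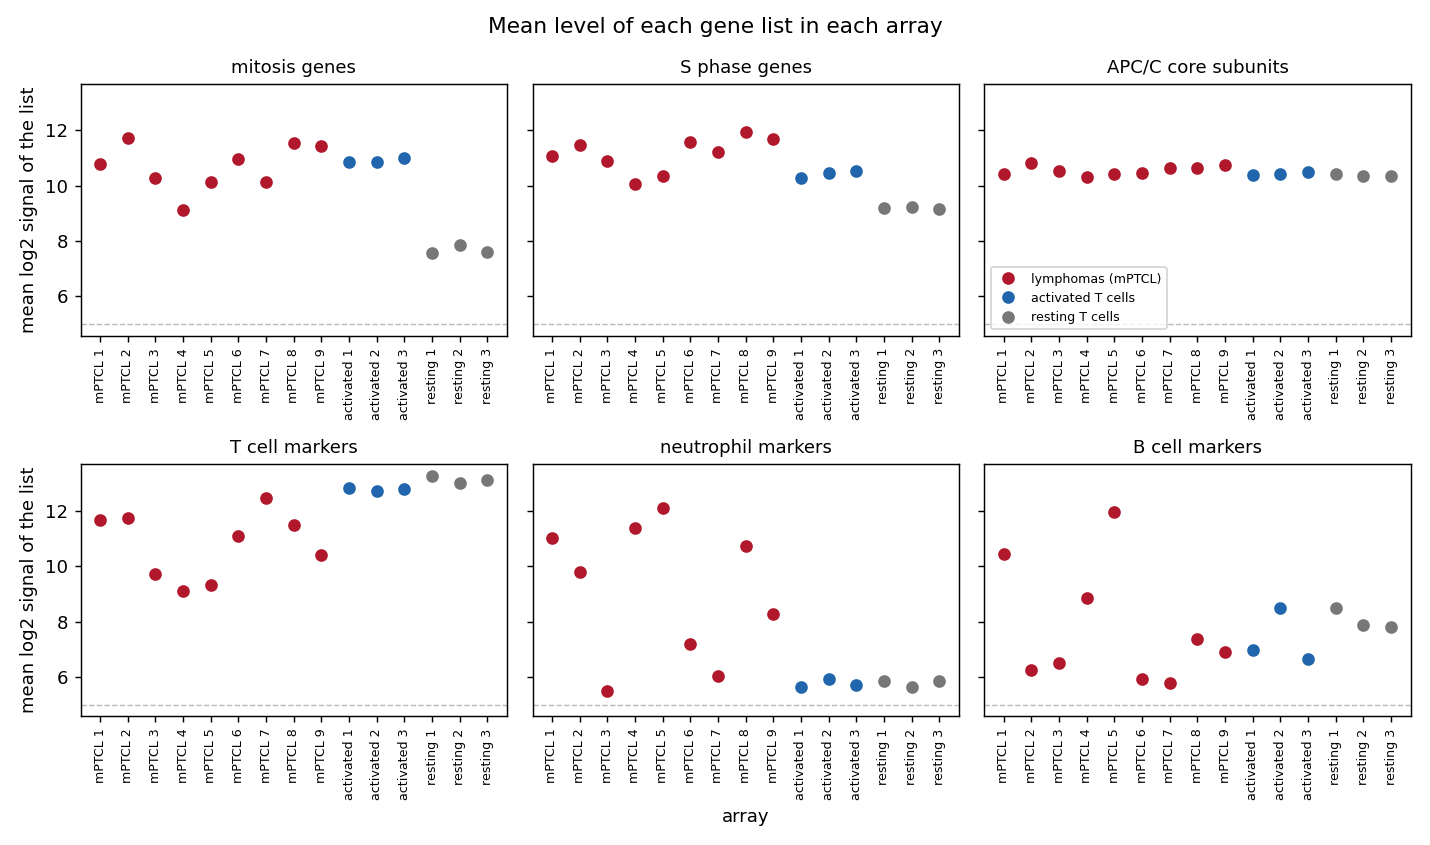
Mean log2 signal of each gene list (vertical axis) in each of the 15 arrays, with lymphomas at the left, activated cells next and resting cells at the right, and the floor as a dashed line. The mitosis genes range between 9.14 and 11.74 in lymphomas around the activated cells at 10.86 to 11.01, the core subunits of the anaphase-promoting complex are level, and neutrophil and B cell markers stand high in some lymphomas only.

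Probe sets for the same gene did not always give the same change. The 46 genes had 102 probe sets, and 30 genes had several, which were also fitted together with all probe sets of the array. For Kif23 they disagreed in direction. The probe set used above, 1455990_at, had resting signals of 470, 610 and 663, whereas 1450827_at had 28.2, 254 and 446 as lowest, median and highest in lymphomas, 326, 326 and 393 in activated cells, and 4.66, 28.4 and 42.3 in resting cells. By 1450827_at Kif23 rose in lymphomas against resting cells (2.59 ± 0.68 with values under the floor in both groups, adjusted p over all probe sets = 0.0332) and was not called against activated cells (-0.71 ± 0.67, adjusted p = 0.548). The remaining probe set, 1453748_a_at, gave -0.59 ± 0.55 against resting cells (adjusted p = 0.570), near the -0.58 of the probe set used. The direction of Kif23 in lymphomas against resting cells therefore depends on the probe set.

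For Foxm1, 1448834_at had 22.7, 254 and 573 in lymphomas, 388, 495 and 475 in activated cells, and 4.61, 4.91 and 14.5 in resting cells, all 3 below the floor. Its change was at least 3.81 in activated cells (adjusted p = 0.00259), and was fitted as 2.55 ± 0.86 in lymphomas (adjusted p = 0.0846), whereas the probe set with the highest mean gave 1.34 in activated cells and 0.75 in lymphomas. Near the latter, 1417748_x_at gave 1.16 in activated cells and 0.72 in lymphomas, and 1437138_at lay below the floor in nearly all arrays. All 3 Pttg1 probe sets had changes below 0 against resting cells in both comparisons, between -0.33 and -0.68 in activated cells and between -0.19 and -0.70 in lymphomas. With the probe set of second highest mean for each gene that has several, an alternative chosen after seeing the data, 42 genes were higher in activated cells and 34 in lymphomas than in resting cells. Tpx2 was lost in activated cells. Anln, Aurka, Cenpa, Nusap1, Tpx2 and Ttk were lost in lymphomas and Kif23 was gained, while Spc25 could not be tested. In lymphomas against activated cells, the same alternative lost Kif23 (-0.71, adjusted p = 0.443) and gained Cenpa as lower (-2.03, adjusted p = 0.0147). Of the 102 probe sets fitted, 4 were lower there and 0 higher. They were those used for Cdc25b and Kif23, and another of Cenpa (-2.03) and of Cenpf (-1.65), with adjusted p over all probe sets of 0.0256 and 0.0399. The remaining probe sets of Cenpa and Cenpf were not called.

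**Figure D4:**
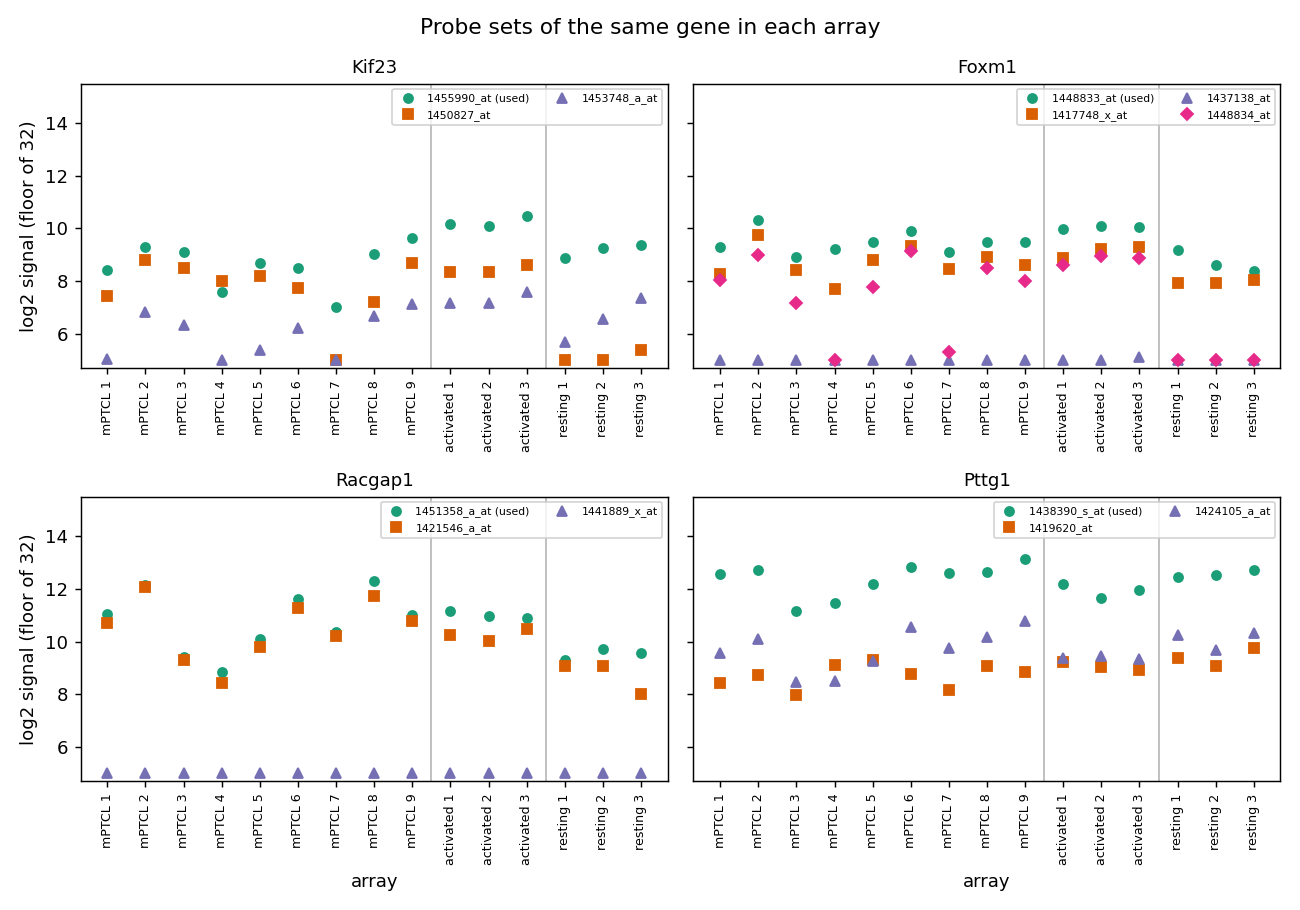
Log2 signal (floor of 32) of each probe set of Kif23, Foxm1, Racgap1 and Pttg1 in the 15 arrays, lymphomas left, activated cells next and resting cells right, with the probe set used in the tests named in each legend. For Kif23 the probe set used stays near 9 in resting cells while 1450827_at is at or near the floor there, and the 3 Pttg1 probe sets have no low resting level.

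Because these genes moved together, their promoters were read for 2 short elements known from cell cycle genes. The cell cycle genes homology region, or CHR, has the core TTTGAA and is bound by the MuvB complex, and CCAAT boxes are bound by the factor NF-Y. The RefSeq promoters (GRCm38.p6, from 250 bases before to 50 after the transcript start) held 40 of the 47 genes, with 42 promoters. The letters TTTGAA or their reverse complement TTCAAA occurred in the last 100 bases of 27 of the 42 promoters (64.3%), against 3.14% of the 12344 promoters of genes tested and 4.94% of all 32851. CCAAT or its reverse ATTGG occurred anywhere in 71.4%, against 37.6% and 37.4%, and at least 2 times in 47.6%, against 13.8% and 11.7%. Matches on both strands and overlapping matches were counted, and the 2 motifs can share an end base. The same hexamer window was positive in 34.8% of promoters of the other mitosis genes listed and in 5.41% of those of S phase genes. The hexamer lay mostly at or just after the start, and the CCAAT boxes before it.

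**Figure D5:**
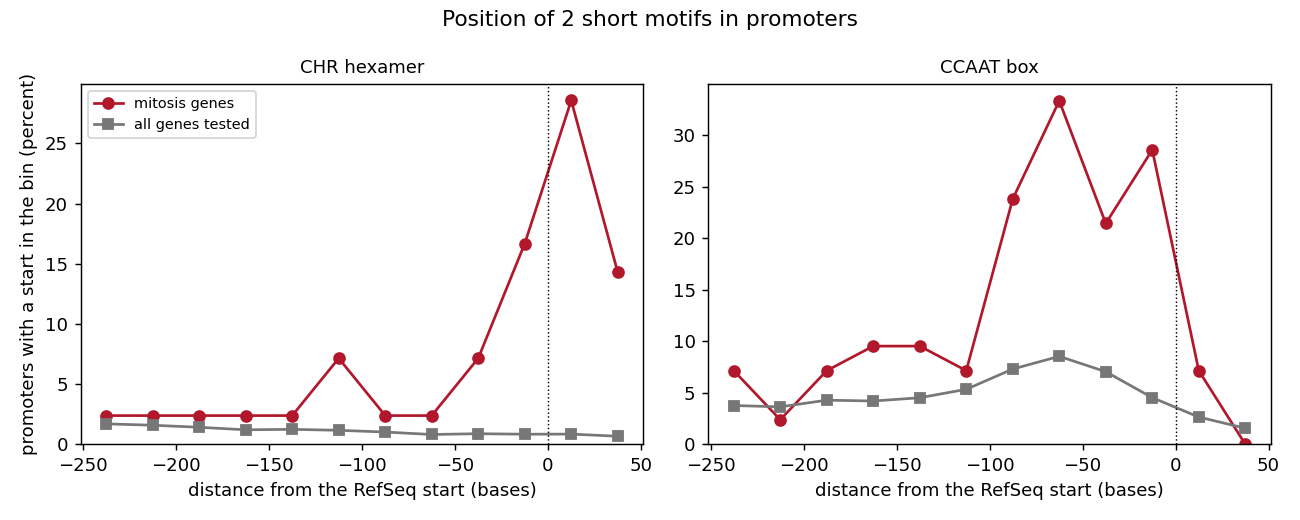
Percent of promoters with a start of the CHR hexamer (left) or of a CCAAT box (right) in bins of 25 bases, against the distance from the RefSeq start in bases, for the 42 promoters of mitosis genes and the 12344 promoters of all genes tested. The hexamer peaks in the first 25 bases after the start, at 28.57% of mitosis promoters against 0.8425% of all, and CCAAT boxes peak 50 to 75 bases before it, at 33.33% against 8.53%.

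The 150 bases before the RefSeq start of 8 genes show these elements, with hexamers and CCAAT boxes in capitals, 5′ to 3′ on the gene's own strand. Cdc20 (chr4:118437344-118437493, minus strand), Cdk1 (chr10:69352913-69353062, minus), Ube2c (chr2:164769779-164769928, plus), Top2a (chr11:99024190-99024339, minus), Kif11 (chr19:37376232-37376381, plus) and Espl1 (chr15:102296143-102296292, plus) are shown as genes that rose in both comparisons and hold a hexamer before the start. Cdc25b (chr2:131186798-131186947, plus) and Pttg1 (chr11:43425982-43426131, minus) are shown as one of the 2 genes lower in lymphomas than in activated cells and as the gene called in no comparison.
Cdc20: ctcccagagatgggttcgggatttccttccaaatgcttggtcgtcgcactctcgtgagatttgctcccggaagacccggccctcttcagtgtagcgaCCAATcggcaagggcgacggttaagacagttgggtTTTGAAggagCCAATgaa
Cdk1: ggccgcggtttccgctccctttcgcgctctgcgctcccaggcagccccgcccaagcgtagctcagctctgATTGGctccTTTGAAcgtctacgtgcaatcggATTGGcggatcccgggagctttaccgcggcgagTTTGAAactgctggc
Ube2c: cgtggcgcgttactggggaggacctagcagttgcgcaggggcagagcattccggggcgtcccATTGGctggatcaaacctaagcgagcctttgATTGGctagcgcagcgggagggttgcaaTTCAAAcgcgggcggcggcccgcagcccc
Top2a: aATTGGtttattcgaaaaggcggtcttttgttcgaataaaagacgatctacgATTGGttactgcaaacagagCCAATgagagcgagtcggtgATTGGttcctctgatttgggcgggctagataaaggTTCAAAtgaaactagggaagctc
Kif11: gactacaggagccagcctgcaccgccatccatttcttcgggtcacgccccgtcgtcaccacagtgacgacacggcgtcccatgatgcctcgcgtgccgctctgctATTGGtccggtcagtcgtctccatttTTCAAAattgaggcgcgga
Espl1: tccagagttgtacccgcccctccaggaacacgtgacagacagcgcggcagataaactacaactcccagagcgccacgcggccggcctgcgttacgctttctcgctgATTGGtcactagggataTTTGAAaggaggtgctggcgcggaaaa
Cdc25b: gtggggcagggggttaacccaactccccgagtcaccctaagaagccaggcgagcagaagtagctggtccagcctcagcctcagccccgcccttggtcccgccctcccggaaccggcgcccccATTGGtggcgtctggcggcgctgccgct
Pttg1: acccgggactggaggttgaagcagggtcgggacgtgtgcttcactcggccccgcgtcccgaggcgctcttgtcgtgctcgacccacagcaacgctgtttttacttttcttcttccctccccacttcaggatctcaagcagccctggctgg

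In Cdc20, Cdk1, Ube2c, Top2a, Kif11 and Espl1 a hexamer began between 15 and 29 bases before the start, and a CCAAT box lay farther upstream. Cdc25b held a single CCAAT box and no hexamer, and Pttg1 neither. Kif23, the other gene lower in lymphomas than in activated cells, held both, with the hexamer after the start and the CCAAT box before it. For Cdc25b, Pttg1, Top2a and Espl1 the start used here lies inside the annotated gene, so the windows of other transcripts were not searched. The distances given for Top2a and Espl1 hold for the start used, and the Espl1 hexamer lies after the annotated gene start. For Cdc25b and Pttg1, and for other genes without the hexamer, no match says only that these letters are not in the window searched. Some starts of genes not printed also lie inside the annotated gene, among them those of Kif2c, Mybl2, Mki67 and Nek2, which count as without the hexamer. The 24 tested genes that have the hexamer near the start had a median change of 3.43 in lymphomas and 3.65 in activated cells against resting cells. The 14 without it had medians of 3.39 in lymphomas and 2.98 in activated cells, a description with no test.

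The rest of the mitotic machinery, listed by name, went with these genes in part. Of 73 other mitosis genes tested, 52 rose in activated cells and 47 in lymphomas against resting cells, with medians of 2.26 in activated cells and 2.25 in lymphomas and 0 lower in both. In activated cells they included Aspm, a spindle pole protein (4.73 ± 0.29), Sgo1, which protects centromeric cohesin (at least 4.22), and the condensin subunit Ncapg (4.19 ± 0.28). In lymphomas they included Cdca5, the cohesion factor sororin (4.45 ± 0.40, adjusted p = 3.30e-05). Against activated cells, 4 of the 73 were higher in lymphomas, among them Cenps (2.18 ± 0.52), the checkpoint ATPase Trip13 (1.64 ± 0.46) and Cks1b (1.30 ± 0.35), and 2 were lower, Depdc1b (-1.86 ± 0.51) and the condensin subunit Smc4 (-1.09 ± 0.25). Both counts lie below the shares of all genes tested in this comparison, 7.04% higher and 8.28% lower.

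Of the 13 listed core and activator subunits of the anaphase-promoting complex, which work with Cdc20 and Ube2c, 1 rose in activated cells, the G1 activator Fzr1 (1.08 ± 0.19), and 0 changed in lymphomas against resting cells (limma, with 8 at an unadjusted p under 0.05), with medians of 0.04 in activated cells and 0.31 in lymphomas. With each array centred on its median, the first of these turned to -0.24, beside -0.25 for all genes. Anapc10 was higher in lymphomas than in activated cells (1.25 ± 0.22, adjusted p = 0.00276). Of 11 tested genes of the MuvB and DREAM complexes, which repress and activate mitotic genes in turn, 0 were called in activated cells (limma, with 5 at an unadjusted p under 0.05). In lymphomas the E2F partner Tfdp1 rose against resting cells (2.07 ± 0.27) and against activated cells (1.25 ± 0.26), and the pocket protein Rbl2, a repressor in quiescent cells, was lower than in activated cells (-1.64 ± 0.41, adjusted p = 0.0145). Single calls among 13 or 11 genes are near the shares of all genes tested. Called higher were 8.45% in activated and 7.03% in lymphomas against resting cells. Against activated cells, 7.04% were higher in lymphomas and 8.28% lower. Shares at the unadjusted limit were not computed.

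S phase and DNA replication genes, which act before mitosis in the cycle, rose as well. Of 37 tested, 18 rose in activated cells and 31 in lymphomas against resting cells, with medians of 0.88 in activated cells and 1.65 in lymphomas. Against activated cells, 2 were higher in lymphomas, the clamp loader subunit Rfc3 (2.19 ± 0.43) and the flap endonuclease Fen1 (1.06 ± 0.30), and 0 lower, again no more than the share of all genes. All 37 changes were above 0, with a median of 0.65, beside 16 of the 45 mitosis genes above 0 and a median of -0.17; the difference between the lists was not tested. Centring each array on its median moved the median of all genes by over 0.1 in this comparison, to 0.31, and that of the mitosis genes to 0.21. The sign for the mitosis genes thus depends on the scaling, and also on which lymphomas entered. All 37 S phase changes stayed above 0 with centring and with quantile normalisation, with medians of 1.03 and 0.72. The mean log2 signal of the S phase genes ranged between 10.06 and 11.93 in lymphomas, and was 10.28, 10.48 and 10.52 in activated and 9.19, 9.23 and 9.17 in resting preparations. mPTCL 4 was again the lowest lymphoma, and mPTCL 8, with 11.93, the highest.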

How the data were processed

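The submitters deposited 1 table of intensity values on a linear scale for 15 arrays, made per the submitters' processing notes by MAS5 with Affymetrix Expression Console (the notes give version 1.1, for lymphoma arrays only). Detection calls were not used, and precision is limited by the number of arrays. Samples were grouped by their labels. Probe sets with 1 gene symbol were used (34958 of 45101, with symbols of 34754 updated by gene identifier), and 18193 genes were each read from the probe set with the highest mean. Values below 32 were set to 32. Tests used limma 3.58.1 in R 4.3.3 (lmFit, eBayes with a trend), fitted to the 11902 genes that reached 100 in 3 or more arrays and to the arrays of the groups compared, with Benjamini-Hochberg adjustment over all genes tested. The fit was tested on simulated data. The genes, lists, naming rule and alternatives were chosen with earlier results of these data known. Within each role, the genes with the largest or smallest change as fitted with that floor and those not called where others were are given in full, and from other lists at most 3 called genes per comparison and direction. Alternatives covered the floor, filter, scaling, choice of probe set, array weights and left-out arrays. Where arrays of the lower group lie at the floor, a fold is a lower bound.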

Additional observations from a re-analysis of the deposited data

Results flagged for a closer look

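Kif22 in mPTCL 4 had a log2 signal of 12.03, with the next lymphoma at 12.81, a gap of 0.585 of the whole range of the 9 lymphomas. It was the only such sample among 46 genes examined, and chance alone marks about 1 group in 20.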

How the results depend on the processing

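The number of genes higher in activated than in resting cells was 38 with all 15 arrays in 1 fit (Cdc25b, Kif23, Mybl2, Plk4, Racgap1 and Spc25 being lost) and 42 to 44 under every other alternative. The number higher in lymphomas than in resting cells was between 34 and 41. With adjusted p alone, 1 gene (Pttg1) was lower in activated cells. In lymphomas against activated cells, the number lower was 0 with each array centred on its median, 1 with the mean of all probe sets and 8 without the 6 lymphomas with neutrophil markers, and ranged between 0 and 2 when 1 preparation was left out. With array weights 3 were lower, Nusap1 being added (-1.01, adjusted p = 0.0296), and 1 was higher, Melk. The number higher was 3 without the 3 lymphomas with B cell markers. In lymphomas against resting cells, Cdc25b turned to -0.18 without the 6 lymphomas with neutrophil markers and ranged between -0.03 and 0.40 with 1 preparation left out (-0.03 without resting replicate 1), and Kif23 turned to 0.47 with the mean of all probe sets and to 2.59 with the probe set of second highest mean. Centring each array on its median moved the median of all genes in activated against resting cells to -0.25, beside 3.30 for the mitosis genes. The cause of these shifts was not tested. Counts over all genes moved by over 1.5 times in places: 397 were called in activated against resting cells with all arrays in 1 fit and 3678 with adjusted p alone, against 1510. In lymphomas against resting cells, 2715 were called with array weights and 778 to 1850 with 1 preparation left out, against 1651, and in lymphomas against activated cells 2946 and 916 to 2167, against 1824 (2586 without the 3 lymphomas with B cell markers). Activated and resting preparations of the same replicate number showed no shared deviation (correlations of their deviations were -0.01, 0.05 and -0.01). This cannot tell whether they came from the same mice, which the labels do not say. With the replicate block 44 genes were again higher and 0 lower. Signals near the floor limit the folds of genes that resting cells lack, which are lower bounds.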
